A study of Bos indicus with 55 samples.

Results

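The vesicle miRNAs of bovine conceptuses made by in vitro fertilisation (IVF) were compared with those of conceptuses conceived in vivo. The members are the 16 small RNA libraries of extracellular vesicles (EVs, small membrane-bound particles that cells release) whose titles name one of these conceptus types. They are 10 IVF libraries, 7 from female and 3 from male conceptuses, and 6 in vivo libraries, 3 from female and 3 from male conceptuses. The series holds 55 libraries, 28 of them from vesicles. The 12 vesicle libraries of nuclear transfer conceptuses entered the fit only to estimate the spread.

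All 16 conceptuses, the embryo with its developing membranes, were taken on day 16 of pregnancy. Each released its vesicles into culture medium for 6 h, the vesicles were pelleted, and inserts of 18 to 40 bp were sequenced. The in vivo conceptuses came from artificial insemination of cattle and the IVF conceptuses from eggs fertilised in the laboratory. The labels name no other difference between the groups. The sample labels give the organism as Bos indicus, whereas the series text calls the conceptuses Bos taurus taurus. Each library carries its own animal code, so the replicates are different animals. What a vesicle pellet can show is limited: no miRNA marks vesicles as such, and fewer vesicles and less RNA per vesicle cannot be told apart. The series title sets the question of whether the endometrium, the lining of the uterus, senses the conceptus in part through its vesicle miRNAs.

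A miRNA is a short RNA that guides a silencing complex to messenger RNAs through its seed, the bases near its 5′ end, and lowers their stability or translation. Around this stage the trophectoderm, the outer epithelium of the ruminant conceptus, elongates along the uterine lumen and releases proteins and vesicles towards the endometrium. Families of miRNAs mark cell states: the miR-302 cluster is typical of pluripotent and early embryonic cells, let-7 and miR-125 build up as cells differentiate, and the miR-200 family is typical of epithelia.

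The 2 groups overlapped in depth. Totals over all miRNA entries ran from 39263 to 400928 counts in the in vivo libraries (median 74370) and from 41396 to 200856 in the IVF libraries (median 136808). The log10 total was higher by 0.163 in IVF, which a two-sided exact permutation test did not separate (p = 0.248). Without in vivo male replicate 3, the deepest library, that difference was 0.296 (exact permutation p = 0.0193). A level of 3 counts, the limit that a count of 0 allows, was 8.28 to 50.7 CPM (counts scaled to a common library total) in the in vivo and 11.4 to 50.4 CPM in the IVF libraries, for counting error only. All CPM are scaled between libraries by TMM (trimmed mean of M values) and so need not add up to the same total in each library. At an equal depth of 39263 counts the in vivo libraries held 259 ± 12.5 entries (SD, n = 6) and the IVF libraries 253 ± 19.0 (SD, n = 10), a difference of -5.57 (exact permutation p = 0.539). Counted without the entries that overlap other RNA classes, described further on, both differences turned sign. The log10 total was at -0.0352 (exact permutation p = 0.811). The entries at equal depth, which was then 28139 counts, were at 19.1 (exact permutation p = 0.170). Of the 1024 entries listed, 583 had a count in the 16 libraries and 143 had one in each of them.

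No miRNA passed the test between IVF and in vivo vesicles. By edgeR's quasi-likelihood test, averaged over the female and the male difference, 0 of 240 entries tested had an adjusted p (Benjamini-Hochberg) under 0.05, a background of 0%. At an unadjusted p under 0.05 stood 39 entries (16.2%), 29 of them higher in IVF (12.1%) and 10 lower (4.17%). Over all 240 entries 124 differences were positive (51.7%) and 116 negative (48.3%), with a median of 0.01 on the log2 scale. DESeq2 called 11 entries (4.58%), 9 higher (3.75%) and 2 lower (0.833%), and limma voom called 22 (9.17%), 6 higher (2.5%) and 16 lower (6.67%). Both called 7. Those 7 were miR-2892, miR-2404, miR-2904, miR-12034 and miR-12004, higher in IVF, and miR-320a and miR-3432a, lower in IVF. The plot of differences against level shows that the higher entries reached larger folds than the lower ones.

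**Figure D1:**
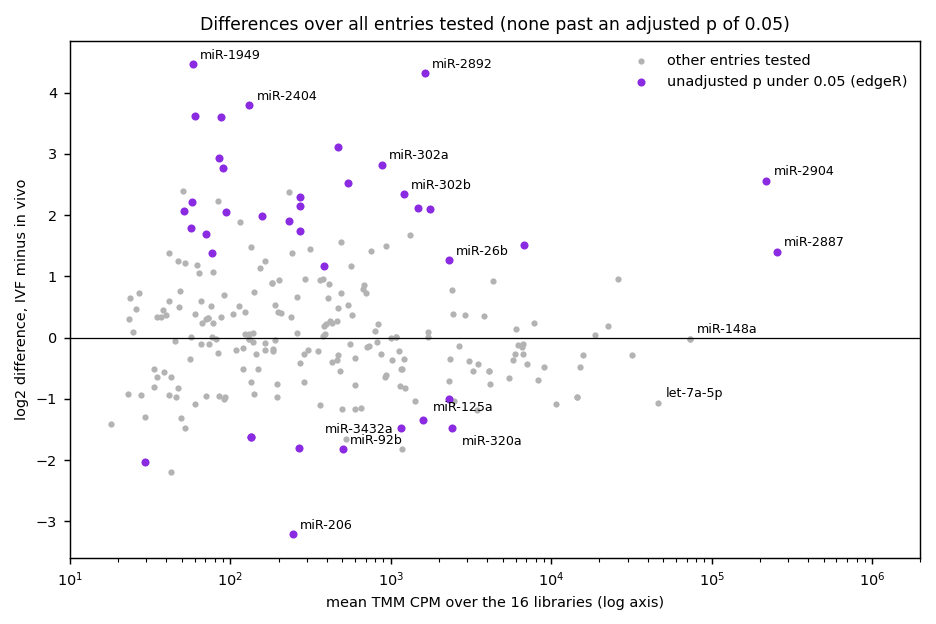
Log2 difference between IVF and in vivo vesicles (vertical axis) against the mean TMM-scaled CPM over the 16 libraries (horizontal log axis), 1 point per entry tested (240). Purple points are the 39 entries at an unadjusted p under 0.05 by edgeR, 29 above and 10 below 0. None had an adjusted p under 0.05.

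With the main filter on low counts, a single library decided the edgeR count. With no such filter and all libraries kept, edgeR called 6 of 655 entries, all 6 higher. Without IVF male replicate 3, edgeR called 21 of 254 entries (8.27%), 11 higher (4.33%) and 10 lower (3.94%), and leaving out any other of the 28 vesicle libraries gave 0. The 21 held all 11 entries called by DESeq2 on the full set and 15 of the 22 called by limma voom. All these calls come from the same counts, so neither this overlap nor that between DESeq2 and limma voom adds support. IVF male replicate 3 was the shallowest IVF library, with 41396 counts and 220 entries detected. Of the 29 higher entries it had no count for 14, and it lay above the highest in vivo library for 2.

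Among the higher entries, miR-2892 had 0, 36.0 and 623 CPM as the lowest, median and highest in vivo values and 0, 3158 and 5238 CPM in IVF. The log2 difference was 4.31 (SE 1.2; edgeR adjusted p = 0.140). In 6 of 10 IVF libraries it lay above the highest in vivo library, while the other 4 overlapped with them. miR-2404 ran from 0 to 102 CPM in vivo (median 4.14) and from 0 to 575 in IVF (median 148), a log2 difference of 3.79 (SE 1.13; edgeR adjusted p = 0.140). miR-12034 reached at most 45.3 CPM in vivo and 334 in IVF, with 8 of 10 IVF libraries above every in vivo library (log2 difference 3.61, SE 1.12; edgeR adjusted p = 0.140). These entries rest on few counts in vivo, 87 for miR-2892, 15 for miR-2404 and 7 for miR-12034 over all 6 libraries, so the fitted folds depend on edgeR's default prior count.

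miR-1248, whose sequence lies within a small nucleolar RNA, had 22.2, 66.3 and 227 CPM in vivo and 0, 725 and 1729 CPM in IVF as its lowest, median and highest values. Its log2 difference was 3.11 (SE 0.98; edgeR adjusted p = 0.140), with 7 of 10 IVF libraries above the in vivo range and 1 below it. miR-1949 was nearly absent in vivo, with 2 counts in 6 libraries against 82 counts in 7 of 10 IVF libraries (log2 difference 4.46, SE 1.46; edgeR adjusted p = 0.140). miR-12004 followed at 2.92 (SE 0.97; edgeR adjusted p = 0.140). The levels of miR-2889 and miR-11975 were higher, with medians of 323 and 473 CPM in vivo and 1943 and 2335 CPM in IVF, and in both 6 of 10 IVF libraries exceeded every in vivo library (edgeR adjusted p = 0.167 and 0.174).

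Also on the higher side, miR-17-5p, a proliferation-linked member of the miR-17-92 cluster, ran from 0 to 238 CPM in vivo (median 76.5) and from 15.1 to 1057 in IVF (median 249), at 2.15 (SE 0.80; edgeR adjusted p = 0.174) and at 1.22 without IVF male replicate 1. miR-374a, from the mammalian miR-374 and miR-545 cluster, lay between 11.3 and 43.6 CPM in all 6 in vivo libraries and above that range in 8 of 10 IVF libraries (log2 difference 1.68, SE 0.63; edgeR adjusted p = 0.174). IVF male replicate 3 had no count for it, and without IVF male replicate 1 the difference was 0.65. miR-2424 had 14 counts in 2 of 6 in vivo libraries and 78 counts in 8 of 10 IVF libraries (log2 difference 3.62, SE 1.33; edgeR adjusted p = 0.174). miR-26b, a family member of the growth-restraining miR-26, ran from 289 to 2424 CPM in vivo (median 1191) and from 992 to 5660 in IVF (median 2562), at 1.26 (SE 0.53; edgeR adjusted p = 0.229).

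Among the 10 lower entries, which hold miR-6529a and miR-6529b as 1 measurement with 2 names, miR-320a, which is made without the Drosha enzyme that cuts most primary miRNAs, had 2642, 3528 and 7336 CPM as its lowest, median and highest in vivo values and 649, 1221 and 2568 CPM in IVF. It is the entry whose groups did not overlap, 1 of 240 (0.417%): all 10 IVF libraries lay below all 6 in vivo libraries. The log2 difference was -1.48 (SE 0.42; edgeR adjusted p = 0.140; DESeq2 adjusted p = 0.0318; limma voom adjusted p = 0.0115). miR-484, made without Drosha as well, was at -0.25 (SE 0.49; edgeR adjusted p = 0.861). miR-3432a had a median of 1312 CPM in vivo and 629 in IVF, where 7 of 10 libraries lay below the in vivo range (log2 difference -1.47, SE 0.47; edgeR adjusted p = 0.140). Both arms of the hairpin of miR-423 were on the lower side, miR-423-3p at -1.0 (SE 0.36; edgeR adjusted p = 0.167) and miR-423-5p at -1.18 (SE 0.59; edgeR adjusted p = 0.297), and no IVF library lay above the in vivo median of either.

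miR-92b, a paralog of the miR-17-92 member miR-92a, had 90.7, 931 and 1510 CPM in vivo and 26.0, 92.5 and 935 CPM in IVF. In vivo female replicate 1 held the lowest of these in vivo values, and 2 IVF libraries, female replicates 2 and 7, lay above the next lowest in vivo library (658.1 CPM), at 935 and 714 CPM, so the groups overlapped with or without it (log2 difference -1.82, SE 0.74; edgeR adjusted p = 0.229). miR-125a, known from differentiating cells, lay below the in vivo range in 7 of 10 IVF libraries, with medians of 2031 CPM in vivo and 484 in IVF (log2 difference -1.35, SE 0.63; edgeR adjusted p = 0.271). miR-6529a and miR-6529b, which had the same count in every library and are 1 measurement, were at -1.63 (SE 0.58; edgeR adjusted p = 0.167). miR-504 was at -1.81 (SE 0.75) and miR-760-3p at -2.04 (SE 0.93), with edgeR adjusted p = 0.229 and 0.256. The 10 also hold miR-206, given further on with the muscle miRNAs. Next by p, and not among the 10, were miR-27a-3p at -0.78 (SE 0.39; edgeR adjusted p = 0.297) and miR-423-5p. Of the 10 lower entries none was called by edgeR, 2 by DESeq2 and 6 by limma voom, beside 0.833% and 6.67% called lower over all 240 entries. The 6 hold miR-6529a and miR-6529b, which are 1 measurement. Because the 10 were chosen by their p values in the same counts, these calls add no support.

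**Figure D2:**
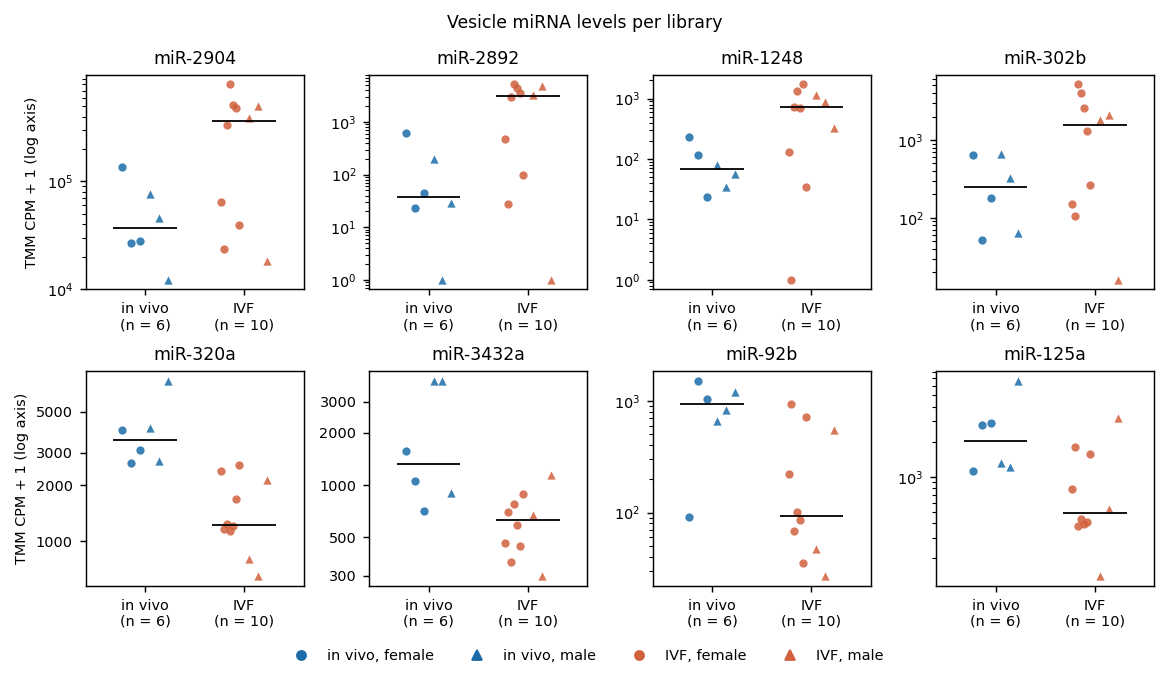
TMM-scaled CPM plus 1 (log axis) in every library for 4 entries on the higher side (top) and 4 on the lower side (bottom), with in vivo libraries in blue (n = 6) and IVF libraries in orange (n = 10), circles for female and triangles for male conceptuses. Bars are group medians. For miR-320a all 10 IVF libraries lie below all in vivo libraries, and in the top row 6 or 7 of 10 IVF libraries lie above all in vivo libraries.

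The most abundant entries were miR-2887 and miR-2904, which with miR-2892 are on a list of bovine entries that overlap other RNA classes, so that their counts may not be miRNA alone. miR-2904 took 1.10 to 13.6% of the counts in the in vivo libraries (median 5.96%) and 2.91 to 39.2% in the IVF libraries (median 29.3%). miR-2887 took 3.01 to 27.4% in vivo (median 15.9%) and 5.89 to 37.1% in IVF (median 26.0%). On the TMM scale the log2 difference was 2.56 (SE 0.77; edgeR adjusted p = 0.140) for miR-2904 and 1.40 (SE 0.60; edgeR adjusted p = 0.229) for miR-2887. Of the 7 entries of that list that were tested 6 were positive with a median of 1.51, and 5 stood at an unadjusted p under 0.05 by edgeR, beside 51.7% positive and 12.1% higher at that p over all 240 entries. The 5 were these 3, miR-1246 at 1.51 (SE 0.61) and miR-6516 at 2.05 (SE 0.90). miR-1248, whose sequence lies within a small nucleolar RNA, is not on that list and was kept where the listed entries were left out. The IVF group was not uniform. In IVF female replicates 3, 4, 5 and 6 the pair together held 48.1, 76.3, 67.7 and 64.1% of the counts, and in IVF male replicates 1 and 2 it held 62.5 and 66.3%. In IVF female replicates 1, 2 and 7 it held 24.0, 13.0 and 22.0% and in IVF male replicate 3 it held 8.80%, all within the in vivo range of 4.11 to 37.1%.

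The higher entries were spread unevenly over the IVF libraries. Of the 29 entries higher at an unadjusted p under 0.05 by edgeR, IVF female replicates 3, 4, 5 and 6 exceeded every in vivo library in 24, 24, 27 and 26, and IVF male replicates 1 and 2 in 28 and 23. IVF female replicates 1, 2 and 7 did so in 1, 3 and 4, and IVF male replicate 3 in 2. Of the 10 lower entries, IVF female replicates 1 to 7 lay below every in vivo library in 3, 2, 7, 5, 5, 6 and 1, and IVF male replicates 1 to 3 in 9, 8 and 2. The first principal component of log2 CPM held 42.5% of the variance over the 16 libraries. On it the in vivo libraries lay between -3.41 and 15.9 and the IVF libraries between -20.2 and 19.9, with 6 of 10 IVF libraries below all in vivo ones. These entries were chosen by their p values, so the counts describe the libraries and support no difference.

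**Figure D3:**
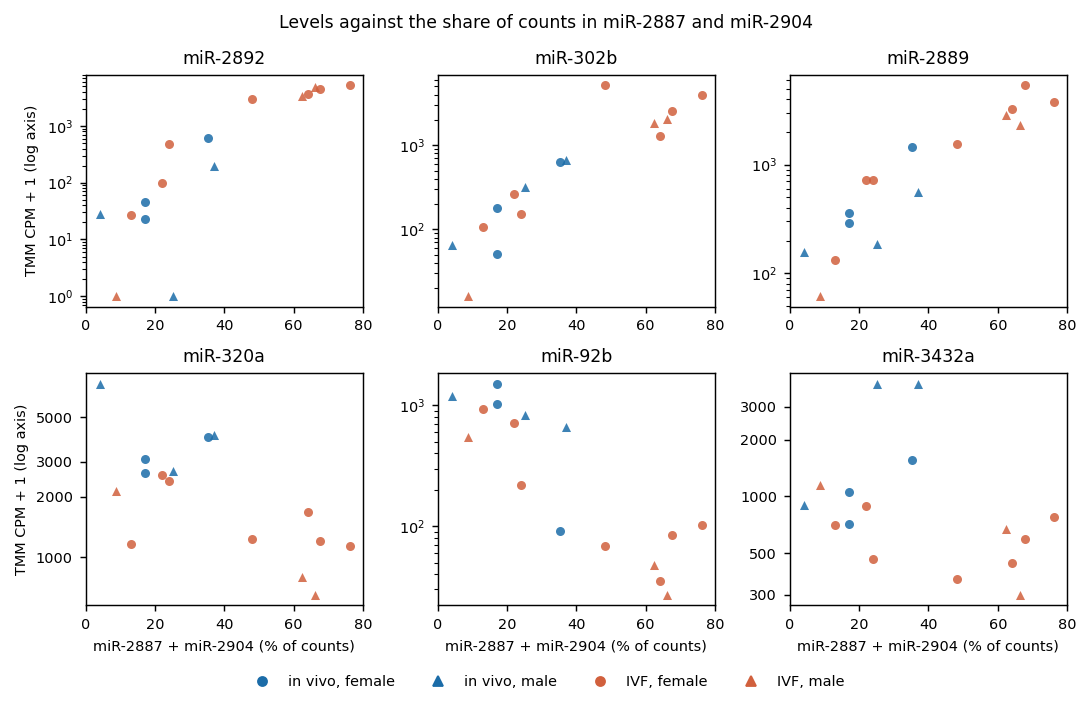
TMM-scaled CPM plus 1 (log axis) of 6 entries against the share of counts in miR-2887 and miR-2904 (horizontal axis, percent), 1 point per library, in vivo in blue and IVF in orange, circles for female and triangles for male conceptuses. miR-2892, miR-302b and miR-2889 are high where the share is high in either group, and for miR-320a the 10 IVF points lie below the 6 in vivo points.

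With that share as a covariate in edgeR, 12 entries stood at an unadjusted p under 0.05 (5%), 2 higher (0.833%) and 10 lower (4.17%), and 0 were called. The median of the 29 higher entries went from 2.15 to 0.73, and 1 of them, miR-107, was still at an unadjusted p under 0.05. Both miR-2887 and miR-2904 are among these 29 and make up the share, so their own fall follows from how it was built. The median of the 10 lower entries went from -1.63 to -1.36, and 7 were still at an unadjusted p under 0.05. miR-2892 was then at 1.45, miR-1949 at 0.66, miR-2889 at 0.10 and miR-302b at -0.02, whereas miR-320a was at -1.10, miR-3432a at -1.49 and miR-92b at -1.50. Because the share was above the in vivo range in 6 of 10 IVF libraries, such a fit cannot tell the share and the conceptus type apart.

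**Figure D4:**
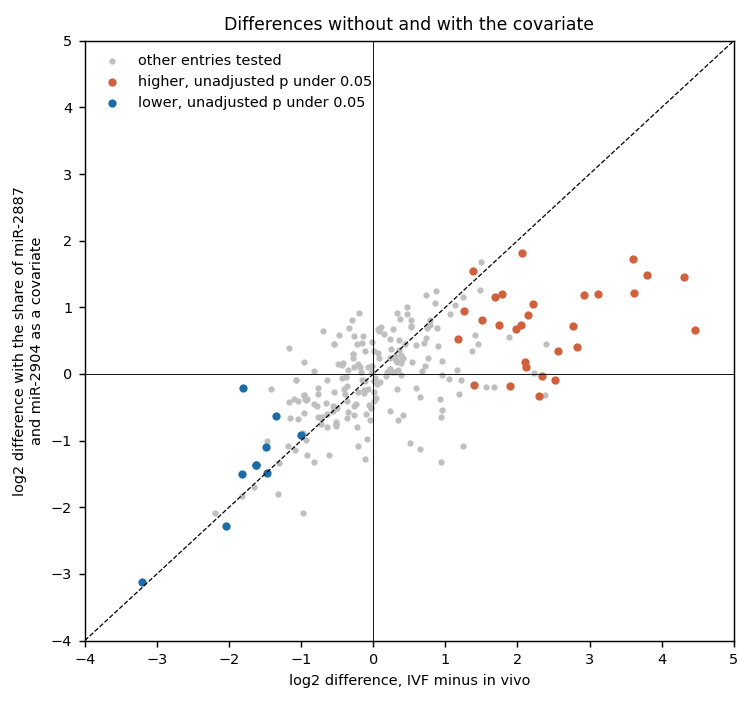
Log2 difference between IVF and in vivo vesicles by edgeR without (horizontal) and with (vertical axis) the share of miR-2887 and miR-2904 as a covariate, 1 point per entry tested (240). The 29 higher entries (orange) lie below the dashed line of equal values except 1, with a median of 2.15 without and 0.73 with the covariate, and the 10 lower entries (blue) lie nearer to it, with -1.63 and -1.36. The orange points include miR-2887 and miR-2904, which make up the share.

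Among the miRNA families, the miR-302 and miR-371 clusters of early embryonic cells were on the higher side in IVF. All 5 members tested were positive, with a median of 2.52, and 4 stood at an unadjusted p under 0.05, beside 51.7% positive, 12.1% higher at that p and a median of 0.01 over all entries. miR-302a had 19.3, 131 and 465 CPM in vivo and 0, 1119 and 4426 CPM in IVF as its lowest, median and highest values (log2 difference 2.82, SE 1.12; edgeR adjusted p = 0.226). miR-302b had 50.8, 250 and 658 CPM in vivo and 15.1, 1556 and 5177 CPM in IVF (log2 difference 2.34, SE 0.96; edgeR adjusted p = 0.229). Both exceeded every in vivo library in the same 6 IVF libraries that had the high share of miR-2887 and miR-2904, and with the share as a covariate the median of the list was -0.02. The other members tested were miR-302c at 2.77 (SE 1.30), miR-302d at 2.52 (SE 1.14) and miR-371 at 0.94 (SE 1.03). In vivo, miR-302c had only 3 counts in female replicate 1 and 5 in male replicate 1, and 0 elsewhere, so its fold rests on the floor. The miR-302 entries belong to the same cluster and are not independent observations.

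The miR-17-92 cluster and its paralogs, which accompany proliferation, were split. Of 8 members tested 6 were positive and 2 negative, with a median of 1.01. miR-17-5p, miR-19b at 1.89 (SE 1.00) and miR-20a at 1.37 (SE 0.70) were on the higher side, miR-25 was at 0.09 (SE 0.40), and miR-92a at -0.37 (SE 0.36) and miR-92b lay on the lower side. Of the miRNAs commonly used as references, 6 of 8 were positive with a median of 0.84, and 4 of 8 stood at an unadjusted p under 0.05, beside 51.7% positive and 16.2% at that p over all entries: miR-15b at 1.79, miR-16a at 2.07 and miR-107 at 1.38 on the higher side and miR-423-3p on the lower side, while miR-191 was at 0.01 (SE 0.38) and miR-103 at 0.78 (SE 0.53).

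Members of families that build up in differentiated cells were mostly negative, and none was called by edgeR. Of the let-7 family 10 entries were tested, but let-7b and miR-3596 had the same count in every library, and of the 9 distinct measurements 8 were negative, with a median of -0.49. let-7a-5p ran from 25389 to 199141 CPM in vivo (median 44020) and from 6493 to 70014 in IVF (median 21627), where 6 of 10 libraries lay below the in vivo range (log2 difference -1.07, SE 0.57; edgeR adjusted p = 0.315). Without in vivo male replicate 3 it was -0.31. let-7c at -1.04 (SE 0.64) and let-7b (with miR-3596) at -0.97 (SE 0.64) were called by limma voom (adjusted p = 0.0180 and 0.0356) and not by edgeR (adjusted p = 0.433 and 0.454). All 5 members of the miR-99, miR-100 and miR-125 families were negative with a median of -0.77, among them miR-99a-5p, which lay below the in vivo range in 7 of 10 IVF libraries and above it in 1, IVF male replicate 3. Its log2 difference was -0.77 (SE 0.57; edgeR adjusted p = 0.514) and -2.18 without that library (edgeR adjusted p = 0.0267). The HOX-cluster miRNAs miR-10a, miR-10b and miR-196b were at -1.08, -0.55 and -1.30, with edgeR adjusted p = 0.484, 0.657 and 0.546, and IVF male replicate 3 had the highest IVF level of both miR-10b and miR-196b. These values moved with single libraries. Without IVF male replicate 3 they were -2.17, -1.67 and -2.68, without in vivo male replicate 3 miR-10a was -0.19, without in vivo male replicate 1 miR-10b was -0.31, and without in vivo female replicate 1 miR-196b was 0.11. With the share as a covariate the medians were -0.0928 for let-7 (distinct measurements), -0.63 for miR-99, miR-100 and miR-125, and -0.55 for the HOX-cluster list.

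The miR-200 family of epithelia, to which the trophectoderm belongs, was present in all 16 libraries, its summed level running from 8324 to 84259 CPM in vivo (median 17327) and from 5862 to 44256 in IVF (median 19550). All 5 members were negative, with a median of -0.48 and none at an unadjusted p under 0.05, and that median turned to 0.57 with the share as a covariate. miR-200b was at -0.48 (SE 0.51) and miR-200c at -0.69 (SE 0.59). The miR-30 family was at a median of -0.02 (3 of 6 positive), the miR-29 family at -0.10 (1 of 3), and the miR-148 and miR-152 family at -0.02 (1 of 3 distinct measurements, miR-148b at 1.17, since miR-148a and miR-148d have the same counts, as do miR-152 and miR-148c). With the share as a covariate these medians were 0.63, -0.18 and 0.0250, and without the entries that overlap other RNA classes 0.0283, -0.28 and 0.0346. Of the imprinted DLK1-DIO3 region, a large placental cluster, 7 of 16 members tested were positive and 9 negative, with a median of -0.07 (-0.49 with the share as a covariate) and none at an unadjusted p under 0.05. Of the large miR-2284 and miR-2285 groups, found in ruminants, 1 member was positive and 3 negative of the 4 tested, although 146 are listed and 56 had a count. miR-221 and miR-222 were at 0.23 and -0.37, and miR-34c and miR-449a at -0.82 and 0.46.

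**Figure D5:**
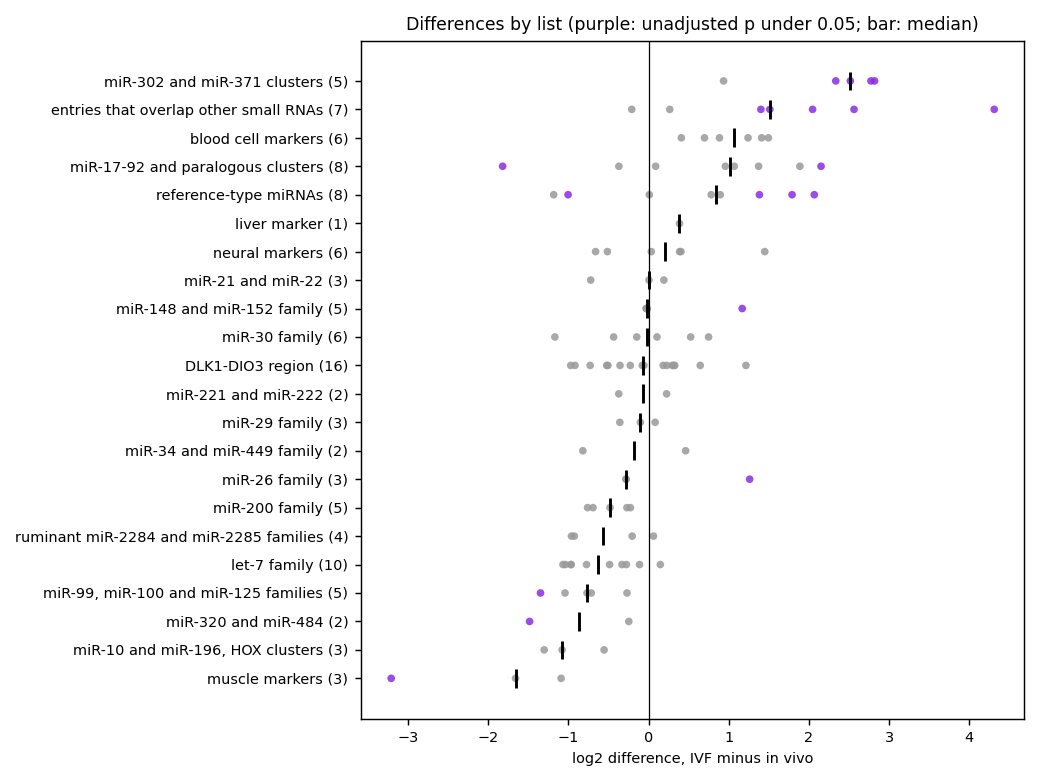
Log2 difference between IVF and in vivo vesicles (horizontal axis) for the tested members of each list (rows, number tested in parentheses), 1 point per entry, purple at an unadjusted p under 0.05 by edgeR and grey otherwise. Black bars are list medians, from 2.52 for the miR-302 and miR-371 clusters to -1.66 for the muscle markers, beside 0.01 over all 240 entries. Entries with the same counts are plotted as separate points, so list sizes and medians here include them.

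Markers of other tissues were present in both groups. All 6 blood cell miRNAs tested were positive with a median of 1.06, none at an unadjusted p under 0.05. Their summed level ran from 254 to 4537 CPM in vivo (median 725) and from 256 to 9030 in IVF (median 1317). miR-451, an erythroid miRNA, had medians of 287 CPM in vivo and 490 in IVF (log2 difference 1.5, SE 1.08; edgeR adjusted p = 0.503), and miR-150, of lymphocytes, was at 1.41 (SE 1.14; edgeR adjusted p = 0.546). The 3 muscle miRNAs tested were negative, with a median of -1.66. miR-206, of skeletal muscle, had 5.52, 180 and 1459 CPM in vivo and 0, 16.1 and 900 CPM in IVF, with counts in 6 of 6 and 6 of 10 libraries (log2 difference -3.21, SE 1.52; edgeR adjusted p = 0.271), and miR-1 was at -1.66 (SE 1.18). Without in vivo male replicate 2, miR-1, which sets the median of this list, was at -0.03 and miR-206 at -1.73. The liver miRNA miR-122 was at 0.38 (SE 0.84), and the neural list had 3 of 5 distinct measurements positive with a median of 0.0351, miR-124a and miR-124b being 1 of them. Of this list limma voom called miR-128, which edgeR had at -0.66 (SE 0.57; edgeR adjusted p = 0.573). Without IVF male replicate 3 miR-128 was at -2.16 (edgeR adjusted p = 0.0267). Neural miR-124a had counts in 4 of 6 in vivo and 5 of 10 IVF libraries. The part of such tissues in the differences above was not tested.

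None of the other most abundant miRNAs stood at an unadjusted p under 0.05. miR-148a, whose count equals that of miR-148d in every library, ran from 30158 to 123565 CPM in vivo and from 44844 to 122533 in IVF (log2 difference -0.02, SE 0.33; edgeR adjusted p = 0.997). miR-26a was at -0.28 (SE 0.38), and miR-26c, with 1 count for every 2.00 of miR-26a, is the same measurement. miR-21-5p was at 0.19 (SE 0.30), miR-9 at 0.04 (SE 0.66) and let-7f at -0.49 (SE 0.39). miR-7, abundant in endocrine and neural cells, had a median of 12955 CPM in vivo and 34920 in IVF, with 4 of 10 IVF libraries above the in vivo range (log2 difference 0.95, SE 0.71; edgeR adjusted p = 0.519).

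Taken by conceptus sex, 0 of 240 entries were called by edgeR in females and 0 in males. At an unadjusted p under 0.05 stood 12 entries in females (5%) and 28 in males (11.7%), where the comparison rests on 3 libraries against 3. In females the lowest p values belonged to miR-196b at -2.93 (SE 1.33), miR-11986b at 2.53 (SE 1.07) and miR-2904 at 2.34 (SE 1.03), all with edgeR adjusted p = 0.761. In males they belonged to miR-6529a and miR-6529b at -2.93 (SE 0.95) and miR-2404 at 5.53 (SE 1.81), with edgeR adjusted p = 0.265. In vivo female replicates 1 to 3 held only 15, 2 and 0 counts of miR-196b and 3, 1 and 0 of miR-11986b. miR-6529a averaged 236 ± 36.5 CPM (SD, n = 3) in male in vivo and 31.3 ± 39.3 (SD, n = 3) in male IVF vesicles, and 157 ± 107 (SD, n = 3) and 124 ± 94.4 (SD, n = 7) in female ones. In males DESeq2 called 1 entry (0.417%), miR-2892, and limma voom 6 (2.5%), all lower: miR-6529a, miR-6529b, miR-128, miR-320a, miR-3432a and miR-92b. In females both called 0.

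The difference between the sexes was itself tested, and 0 of 240 entries were called by edgeR, DESeq2 or limma voom, with 11 (4.58%) at an unadjusted p under 0.05 by edgeR. The lowest p values belonged to miR-432 at -4.73 (SE 1.77), miR-224 at -3.41 (SE 1.30) and miR-449a at -4.53 (SE 1.84), male minus female difference, all with edgeR adjusted p = 0.947. miR-432 and miR-449a rest on few counts. IVF male replicates 1 to 3 held 3, 2 and 1 counts of miR-432, and in vivo female replicates 1 to 3 held 1, 1 and 0. For miR-449a these were 0, 2 and 0 in both groups. miR-224, known from the granulosa cells of the ovary, averaged 107 ± 43.1 CPM (SD, n = 3) in female in vivo, 178 ± 147 (SD, n = 7) in female IVF, 447 ± 601 (SD, n = 3) in male in vivo and 70.1 ± 23.1 (SD, n = 3) in male IVF vesicles. In vivo male replicate 3 alone reached 1140 CPM. Across the 240 entries the female and male differences had the same sign in 155, with Pearson's r = 0.53 and Spearman's rho = 0.53. That is across entries, which are not independent replicates.

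The balance between the arms of a hairpin needs no scaling between libraries. Of 81 hairpins with both arms listed, 10 had enough counts in all 16 libraries, at least 20, and 0 passed the threshold after adjustment. In 7 of the 10 an arm was at 0 in at least 1 library, where the ratio depends on the pseudocount and the depth. These include the 2 hairpins with the smallest p, miR-151, whose 5p arm had 0 to 12 counts and was at 0 in 3 of 6 in vivo and 1 of 10 IVF libraries, and miR-99a, whose 3p arm was at 0 in all 16, and no difference is read from them. For miR-22, with counts of both arms in every library, the log2 ratio of the 5p to the 3p arm was -2.63 ± 0.92 (SD, n = 6) in vivo and -3.34 ± 0.80 (SD, n = 10) in IVF, a difference of -0.71 (exact permutation p = 0.131, adjusted p = 0.435). Its 3p arm has the same count as miR-3600.

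In IVF alone 114 entries had a count and in the in vivo libraries alone 43, with 10 libraries on one side and 6 on the other. Of the IVF-only entries 3 were found in 5 or more libraries: miR-2419-5p with 46 counts in 7 libraries, miR-15a with 9 counts in 6 and miR-7860 with 5 counts in 5. They were below the filter and not tested, and were named after their values were seen. No in vivo-only entry was found in 3 or more libraries.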

How the data were processed

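Small RNA of extracellular vesicles from 16 conceptuses was analysed with that of 12 nuclear transfer conceptuses. The authors deposited a table of whole, unnormalized read counts for 1024 bovine miRNA entries. Per the submitters' processing notes the tools were cutadapt, STAR, featureCounts, Bowtie and DESeq2 with the build ARS-UCD1.2; neither their roles nor their versions are given in the sources used here, so how reads that match several entries were counted is unknown. Entries with equal counts in every library were tested separately, and lists that hold such entries are counted by distinct measurement.

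The deposited counts were fitted with edgeR 4.0.16 (R 4.3.3): filterByExpr by group (minimum count 10, total 15), TMM, and glmQLFit with 6 group means (type by sex) over the 28 vesicle libraries. The main contrast is the mean of the female and male differences, with Benjamini-Hochberg adjustment over all entries tested and a threshold of 0.05. Each SE of a log2 difference was computed as its absolute value over the square root of edgeR's F statistic. It is approximate and can fail near 0, as for the main difference of miR-432 (-0.06, SE 25.2). Log2 CPM used a prior count of 2, and the fitted log2 differences used edgeR's default. DESeq2 1.42.0 (positive-count size factors), limma 3.58.1 voom with quality weights, other filters, scalings, covariates, a replicate block and leaving out each library were alternatives. Depth, entries at equal depth and arm ratios (pseudocount 1) were compared by exact permutation tests in scipy 1.17.1. The tests were checked on simulated data. Groups were taken from the sample titles.

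The members and the lists were chosen with earlier results of these data known, and list patterns were tightened by entry name after the table was opened, so lists are described and not tested. Named entries are those past the threshold, the 12 higher and 12 lower with the smallest p, those called by both DESeq2 and limma voom, the 10 most abundant, up to 2 of each list by level and 2 by p, and the 3 with the smallest p by sex, for the interaction and for arm ratios. The endometrium tables were not used here, and miRNA sequences are not shown.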

Additional observations from a re-analysis of the deposited data

Results flagged for a closer look

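In 8 of 172 groups of 6 or 10 libraries checked, the highest or lowest library stood further from the next than Dixon's 95% value allows, measured as its gap over the whole range of the group. Chance flags about 1 in 20 groups. IVF male replicate 3 was the lowest IVF library for miR-374a (gap over range 0.474) and for the log10 total (0.562), and the highest for miR-10b (0.626) and miR-196b (0.530). In vivo male replicate 3, the deepest library, was the lowest in vivo library for miR-100 (0.680) and the highest for miR-224 (0.721). In vivo female replicate 1 was the lowest in vivo library for miR-92b (0.694), and IVF female replicate 1 the lowest IVF library for miR-100 (0.492).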

How the results depend on the processing

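The edgeR count of 0 entries between IVF and in vivo vesicles became 11 by DESeq2, which gave no adjusted p to 2 entries, 22 by limma voom, and 6 of 655 with no filter on low counts. It was 0 under the other 9 alternatives (DESeq2 size factors, 10 CPM in 3 libraries, the 16 libraries alone, the overlap entries removed, either covariate, 1 entry per identical set, the replicate block, sex ignored). With 1 library left out it ran from 0 to 21, the 21 being without IVF male replicate 3. In males the count of 0 became 1 by DESeq2 and 6 by limma voom, and 0 in all fits with 1 library left out; the female and interaction counts were 0 throughout. Same-numbered in vivo and IVF libraries had deviations correlated between -0.34 and 0.63, and 2 of 6 were closest to their own number. These 6 comparisons are too few to decide whether same-numbered libraries share more than a number. With the replicate block 0 entries were called and 43 stood at an unadjusted p under 0.05. The median of all entries moved to 0.12 with the log2 total as a covariate and to -0.11 with 1 entry per identical set. The difference in log10 depth was -0.0352 without the overlap entries and ran from 0.0942 to 0.296 with 1 library left out. That in entries at equal depth was 19.1 without them (at 28139 counts) and ran from -9.90 to -1.74 with 1 library left out. The arm ratios gave 0 hairpins past the threshold under all alternatives. Of 93 named results 31 turned direction under at least 1 alternative or library left out; those values follow, and the cause was not tested. With the share of miR-2887 and miR-2904 as a covariate, the log2 difference of miR-2887 was -0.17, miR-148a and miR-148d 0.025, miR-26a 0.30, miR-7 -0.55, miR-9 -0.37, miR-26c 0.30, let-7f 0.15, miR-302b -0.0235, miR-25 -0.13, miR-200b 0.59, miR-200c 0.64, miR-30d 0.14, miR-30a-5p 0.57, miR-30f 0.39, miR-154c -0.0915, miR-2284y 0.91, miR-22-3p -0.10 and miR-224 0.17. Since miR-2887 is itself part of that share, its value there is no independent result. By limma voom, the log2 difference of miR-148a and miR-148d was 0.32, miR-9 -0.17, miR-29b 0.43, miR-370 -0.0062, miR-2284y 0.49 and miR-451 -0.27. In the 16 libraries alone, the log2 difference of miR-148a and miR-148d was 0.0018. Without the entries that overlap other small RNAs, the log2 difference of miR-148a and miR-148d was 0.0346, miR-9 -0.12 and miR-22-3p -0.0257. With the replicate block, the log2 difference of miR-148a and miR-148d was 0.12 and miR-432 0.31. With sex ignored, the log2 difference of miR-148a and miR-148d was 0.0131, miR-9 -0.0645, miR-29b 0.40, miR-2284y 0.15 and miR-22-3p -0.0222. By DESeq2 itself, the log2 difference of miR-9 was -0.13 and miR-22-3p -0.059. With DESeq2 size factors, the log2 difference of miR-9 was -0.13 and miR-22-3p -0.0602. With the filter of 10 CPM in 3 libraries, the log2 difference of miR-9 was -0.14, miR-25 -0.0343, miR-2284x -0.0778 and miR-22-3p -0.12. With 1 entry per identical set, the log2 difference of miR-9 was -0.24, miR-25 -0.0503, miR-370 -0.0046, miR-2284x -0.10 and miR-22-3p -0.17. With the log2 total as a covariate, the log2 difference of miR-100 was 0.18, miR-25 -0.0094, miR-127 0.34, miR-2284x -0.0781, miR-22-3p -0.0413 and miR-432 0.42. With no filter, the log2 difference of miR-432 was 0.0361. With 1 library left out at a time, the log2 difference crossed 0 for these entries: miR-148a and miR-148d -0.23 to 0.21, miR-26a -0.53 to 0.0388, miR-21-5p -0.0345 to 0.32, miR-9 -0.57 to 0.82, miR-26c -0.53 to 0.0389, miR-196b -2.68 to 0.11, miR-25 -0.18 to 0.38, miR-200b -0.73 to 0.31, miR-200c -0.95 to 0.20, miR-29b -0.77 to 0.33, miR-30a-5p -0.37 to 0.15, miR-127 -1.27 to 0.72, miR-370 -0.42 to 0.81, miR-154c -1.73 to 2.04, miR-2284x -0.25 to 0.57, miR-2284y -0.78 to 1.14, miR-221 -0.023 to 0.59, miR-22-3p -0.21 to 0.16, miR-449a -1.29 to 1.95, miR-451 -0.62 to 2.13, miR-122 -0.31 to 0.88, miR-432 -0.40 to 0.29 and miR-224 -1.24 to 0.10. In all, 63 of 81 named entries moved by over 1.5 times or turned with some library left out, 39 of them without crossing 0. Of the entries named for their p values, miR-12034 was at 5.57 without in vivo female replicate 1, miR-12004 at 4.67, miR-504 at -0.74 and miR-125a at -0.75 without in vivo male replicate 3, miR-17-5p at 1.22, miR-374a at 0.65 and miR-15b at 0.84 without IVF male replicate 1, miR-92b at -3.02, miR-125a at -2.36, miR-206 at -4.97 and miR-423-5p at -2.06 without IVF male replicate 3, miR-760-3p at -3.44 without IVF male replicate 2, miR-206 at -1.73 without in vivo male replicate 2, and miR-27a-3p at -1.12 and -0.43 without in vivo female replicates 1 and 3. miR-22-3p has the same count as miR-3600. Depth limits the entries under about 50 CPM, where 0 and 3 counts cannot be separated in the shallowest libraries.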

Other observations

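The neural miR-124a and miR-1298 were concentrated in a few libraries of both groups, whereas miR-150, miR-122, miR-451, miR-9 and miR-128 had counts in all 16. miR-124a, of which miR-124b is the same measurement, had 62 counts in IVF female replicate 4, 62 in IVF male replicate 3, 46 in in vivo male replicate 2, 28 in in vivo female replicate 3 and 20 in in vivo male replicate 3, and 8 or fewer in each of the other 11. miR-1298 had 22, 38, 29, 32 and 13 counts in the same 5 libraries. In vivo male replicate 3 is the deepest library and did not stand out on the CPM scale. It held 55.2 CPM of miR-124a, below IVF female replicate 5 at 74.9. Of miR-1298 it held 35.9 CPM, below in vivo male replicate 1 at 38.7. The others of the 5 held 311 to 1041 CPM of miR-124a and 356 to 573 CPM of miR-1298. The muscle miRNA miR-206 reached 1459 CPM in in vivo female replicate 2, 900 in IVF female replicate 1 and 744 in in vivo male replicate 2. miR-1 was highest in in vivo male replicate 2 at 3180 CPM and IVF female replicate 1 at 1351 CPM. The lymphocyte miRNA miR-150 ran from 2.76 CPM in in vivo male replicate 3 to 1640 in in vivo female replicate 2 in vivo, and from 33.6 in IVF female replicate 4 to 4481 in IVF female replicate 6. CPM are scaled by TMM, and the source of this RNA was not tested.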
